A study of Mus musculus with 6 samples.

Results

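The genes described here encode the proteins of the cytosolic ribosome of the mouse. They were chosen by name alone: every protein-coding gene called Rps or Rpl followed by a number, with at most a short ending such as a, x or l, together with Rplp0, Rplp1, Rplp2 and Rpsa. The rule found 83 genes, which is 83 of the 21620 protein-coding genes and of the 47643 gene identifiers in the count tables. Of these, 32 belong to the small subunit and 51 to the large subunit, and they lie on 19 chromosomes. Another 5 identifiers with such names are not annotated as protein-coding and were left out. No measured value enters this rule, but the family was chosen with earlier results of these data known.

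A ribosome holds its proteins in fixed proportion, each bound to ribosomal RNA in the small subunit, which reads the mRNA, or in the large subunit, which joins the amino acids. Ribosomal protein mRNAs are therefore usually kept in step with each other and are among the most abundant messages of growing cells. Most start with a C followed by a run of C and T bases, the terminal oligopyrimidine (TOP) tract, through which the kinase mTOR and the binding protein Larp1 set their translation. In sensory neurons these mRNAs are also carried into axons, where local translation takes part in growth. Almost every mammalian ribosomal protein gene has processed pseudogenes, intronless copies of its mRNA elsewhere in the genome.

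The study measured total RNA of dorsal root ganglia, the clusters of sensory neurons beside the spinal cord, from CD-1 mouse embryos of embryonic day 13. In 3 libraries the cells had received an shControl lentivirus, and in the other 3 an shUHRF1 lentivirus against Uhrf1, which encodes an epigenetic regulator that links DNA methylation and histone marks. Strain, stage and tissue were the same in both groups, the neurons were uninjured, and no other allele or agent is named. The question was how transcription changes when UHRF1 is knocked down. In each group the libraries carry the numbers 1 to 3, and the labels leave unsaid whether these were separate cultures, so the p-values measure only the spread between libraries, which may be technical.

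Between 15599776 and 22382813 reads per library were assigned to genes, and 15573 genes had enough reads to be tested. Uhrf1 itself was near the detection limit. Its reads numbered 8, 6 and 5 under shControl and 2, 1 and 5 under shUHRF1, so the groups met at 5 reads. Its log2 fold change in the fit without a low-count filter was -1.43 ± 0.73 (SE), with an adjusted p of 0.245 (edgeR quasi-likelihood test, Benjamini-Hochberg adjustment), and the knockdown is therefore weakly checked by these reads. Neuronal markers summed to 29946 to 35583 CPM (reads scaled to a common library size) in shControl and 23548 to 29670 CPM in shUHRF1, with Gap43 and Tubb3 lower and Prrxl1 higher among 22 tested genes (4 lower and 3 higher with the replicate number as a block in the fit). Markers of other cells of the ganglion were far lower but moved with the group. Fibroblast markers summed to 11.4 to 14.9 CPM in shControl and 90.1 to 207 CPM in shUHRF1, with 9 of 10 tested genes higher. Macrophage markers summed to 6.34 to 12.8 and 17.6 to 46.8 CPM, with 5 of 8 tested genes higher. Among glial markers 9 of 14 tested genes were higher and 1, Mbp, was lower, and the sums of 631 to 720 and 248 to 738 CPM overlapped. Of all tested genes, 11.6% were higher and 12.4% lower at an edgeR adjusted p below 0.05. No gene of these lists was at 0 reads in all 3 shControl libraries. The part of these cells in the values below was not tested.

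The annotated start sites were searched for runs of C and T, a looser pattern than a TOP tract because the run may lie anywhere in the window. RefSeq start sites (GRCm38.p6) were found for 63 of the 83 genes, at 75 sites, and a window of 30 bases was read at each, from 10 bases before to 20 bases after the start. The windows below are written 5′ to 3′ on the gene's strand, and capitals mark a run of 6 or more bases that are each C or T. The first 3 were picked for their long runs and belong to genes whose level did not pass the test. Other genes that did not pass it, such as Rpl5 and Rps15, had no run in their window. Rps6, Rpl27 and Rpl36a are the genes called lower that have an entry, and Rpl26 is the member with the smallest p between replicate numbers.
Rpl27a (chr7:109519185-109519214, plus strand): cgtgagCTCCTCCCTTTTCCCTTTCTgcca
Rpl15 (chr14:18270967-18270996, minus strand): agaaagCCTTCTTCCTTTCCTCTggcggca
Rpl13a (chr7:45128726-45128755, minus strand): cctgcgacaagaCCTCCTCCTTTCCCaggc
Rps6 (chr4:86857348-86857377, minus strand): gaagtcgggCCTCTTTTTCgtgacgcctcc
Rpl27 (chr11:101442235-101442264, plus strand): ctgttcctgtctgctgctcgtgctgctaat
Rpl36a (chrX:134585644-134585673, plus strand): cccaggcaccgcctataaacttccgttgcg
Rpl26 (chr11:68901556-68901585, plus strand): ggcaacttacagaaccggaagtcgcgtgta

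Such a run was present in 40 of the 75 windows (53.3%), against 28.7% of the 32851 start sites in the RefSeq table. On the opposite strand, where the run reads as A and G, it was present in 13.3% of the ribosomal windows and in 32.0% of all windows. Counted by gene, 38 of the 63 genes (60.3%) had a run in at least 1 window, against 32.1% of all genes in the table. Rpl27a, Rpl15 and Rpl13a had runs of 20, 17 and 14 bases, and Rps6 had a run of 10 bases beginning 1 base before the RefSeq start. No run of that length was found in the windows of Rpl27, Rpl36a and Rpl26, which says only that these letters are not in this window. The RefSeq site differs from the 5′ end of the annotated gene for every gene printed above except Rpl36a. The windows of Rpl27a, Rpl15, Rpl13a and Rps6 lie inside the annotated gene. Its 5′ end is at 109519147, 18271391, 45128761 and 86857412 in these genes. The Rpl27 window ends at 101442264, before the annotated gene start at 101442298. The Rpl26 window ends at 68901585, just past the annotated gene start at 68901583. For all of these genes except Rpl36a the window may therefore miss the start of the mRNA.

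Most ribosomal protein genes differed little between the groups, and few passed the test. Of the 83 genes, 79 had enough reads for the test. Of those, 1 rose and 5 fell at an adjusted p below 0.05 (edgeR quasi-likelihood test, Benjamini-Hochberg adjustment over all genes), which is 7.59%, against 24.0% of all tested genes (11.6% higher and 12.4% lower). The other 73 did not pass the test. At an unadjusted p below 0.05 in the same test the count was 7. The 24.0% of all genes called also meet that looser threshold, so the share of all genes there is at least as large. With the replicate number as a block, the same 6 genes were called, against 31.0% of all genes (15.3% higher and 15.7% lower). In bulk RNA, fewer cells of a type and less RNA per cell cannot be told apart.

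The log2 fold changes of the 79 genes were centred near 0, with 37 above and 42 below it. Their median was -0.01, with quartiles of -0.19 and 0.10, against a median of 0.02 and quartiles of -0.32 and 0.39 for all tested genes. In 60 genes (75.9%) the fold change lay within 0.25 of 0 on the log2 scale, against 37.8% of all genes. For 64 genes (81.0%) the 95% confidence interval lay inside a 2-fold change in both directions, against 56.3% of all genes, and for 43 it lay inside 1.5-fold. The 15 genes whose interval was not inside 2-fold include Rpl26, Rps2, Rpl23a, Rps29 and Rps16, whose intervals reached past 2-fold in both directions. They also include the called genes Rpl29, Rps6, Rpl36a and Rpl27, whose intervals lay below 0 and reached past 2-fold on the lower side. With the replicate block the interval lay inside 2-fold for 71 genes, now including Rpl26, Rps2 and Rps16, while that of Rps29 still reached past it in both directions and that of Rpl23a on the higher side. Ribosomal protein genes are short, and the share of all genes called is given by length for comparison. Of all genes with under 1000 bases of exon 9.2% were called, of those with 1000 to 2000 bases 16.6%, of those with 2000 to 4000 bases 21.4%, and of those with 4000 to 8000 bases 28.0%, where 1 of 11, 4 of 32, 0 of 30 and 1 of 6 ribosomal protein genes were called. The small subunit (32 genes tested, 1 higher, 1 lower, median 0.02) and the large subunit (47 tested, 4 lower, median -0.05) had similar medians, and the difference between them was not tested.

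**Figure D1:**
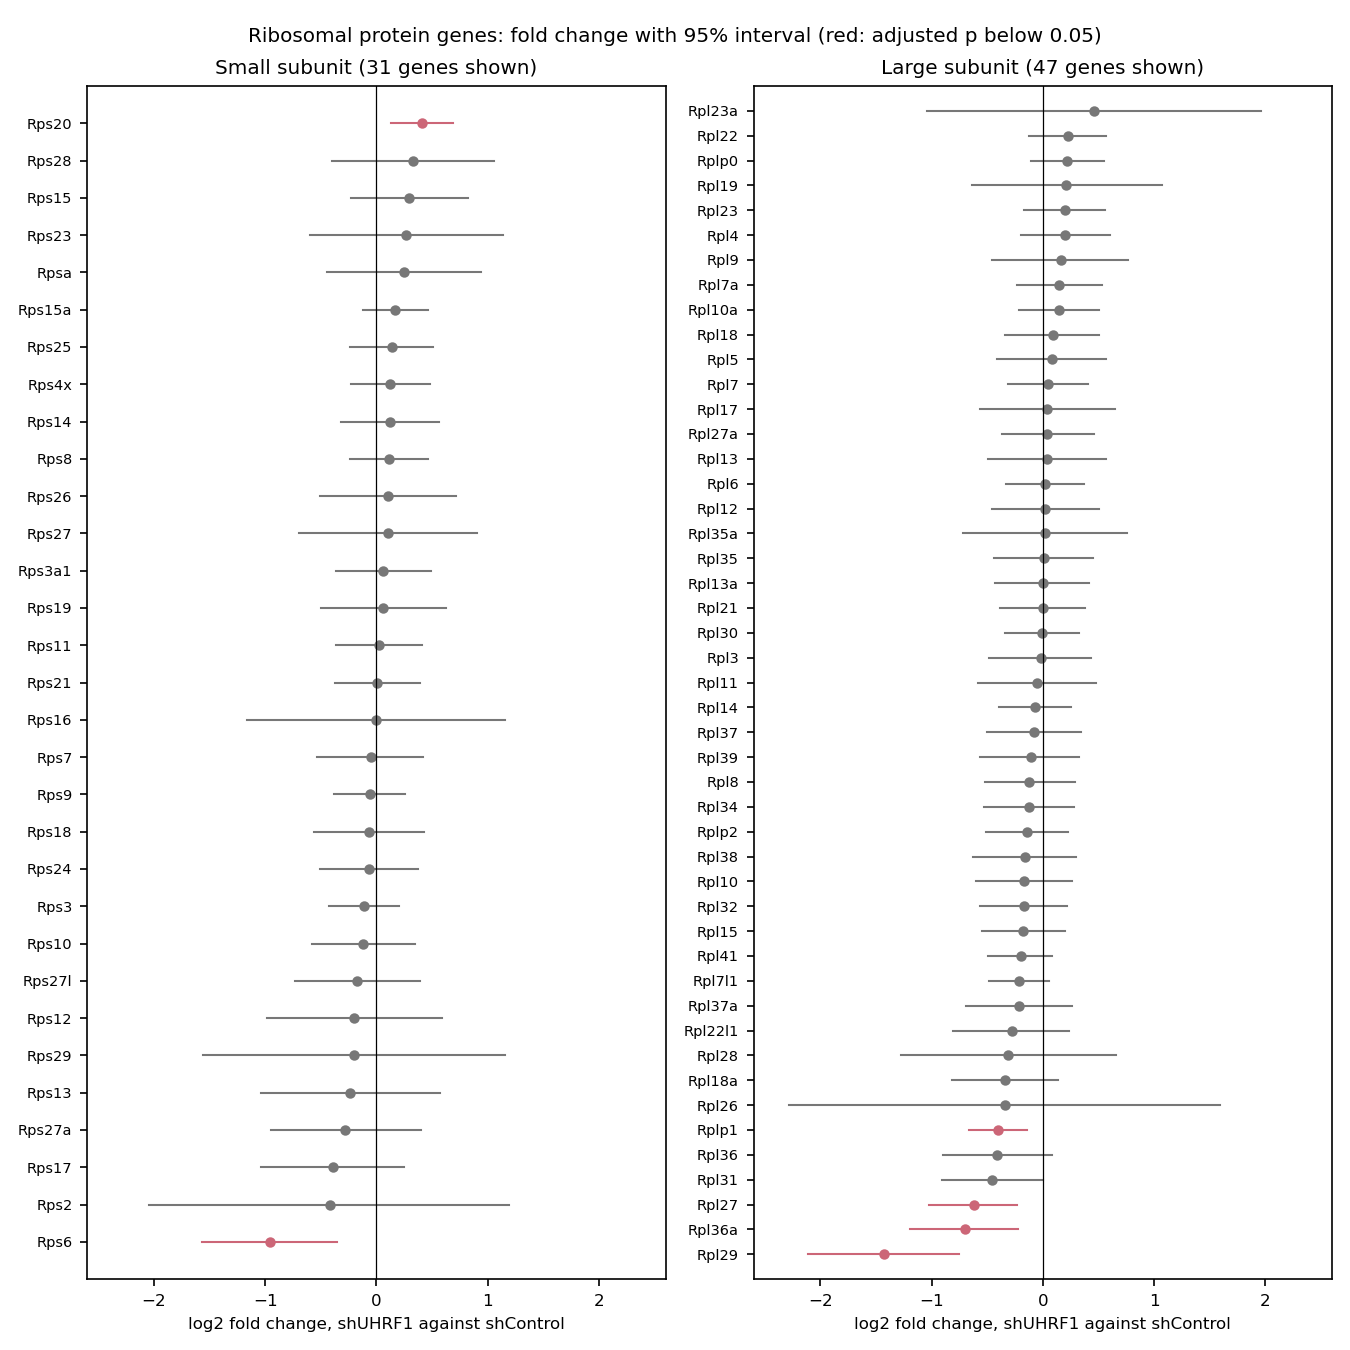
Log2 fold change of shUHRF1 against shControl for 78 of the 79 tested genes, with bars for the 95% confidence interval, ordered by value within each subunit. Most points lie close to the line at 0, and the 6 genes in red passed an adjusted p of 0.05: Rps20 to the right, and Rps6, Rplp1, Rpl27, Rpl36a and Rpl29 to the left.

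The gene with the largest fall was Rpl29, a protein on the surface of the large subunit that mice can live without, at the cost of slower growth (chromosome 9, 106429454 to 106431568, plus strand, mm10). Its level was 1.86, 1.94 and 2.25 CPM in shControl against 0.853, 0.648 and 0.727 in shUHRF1. Every shUHRF1 library lay below every shControl library. The log2 fold change was -1.43 ± 0.29 (SE; n = 3 libraries per group; edgeR adjusted p = 0.0120). The gene is thinly covered, with 30 to 47 reads in shControl and 11 to 19 in shUHRF1. Leaving out shControl replicate 3 raised the adjusted p to 0.0610, and the call was kept when any of the other 5 libraries was left out.

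Rps6, the small-subunit protein that S6 kinase phosphorylates when mTOR is active, was also lower (chromosome 4, 86854660 to 86857412, minus strand). Its level was 4.24, 4.66 and 4.40 CPM in shControl against 3.01, 1.94 and 1.84 in shUHRF1, again without overlap. The log2 fold change was -0.96 ± 0.26 (SE; edgeR adjusted p = 0.0339). Rps6 shares much of its sequence with processed pseudogenes: 84.56% of the 50-base words of its mRNA are also found in another gene. Of the 14 pseudogenes that share them, 11 had reads, and together they had 0.407, 0.388 and 0.909 CPM in shControl against 3.19, 0.707 and 2.18 in shUHRF1. These sums overlapped between the groups and were not tested. With the reads of its named pseudogene copies added to the gene, the log2 fold change was -0.74 and the adjusted p 0.104. Leaving out 1 library ended the call in 5 of 6 cases, with adjusted p-values between 0.0117 and 0.105.

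Rpl27, a large-subunit protein, had 9.23, 7.90 and 9.57 CPM in shControl against 5.79, 5.95 and 5.62 in shUHRF1 (chromosome 11, 101442298 to 101445529, plus strand). The 3 shUHRF1 libraries were close together and below all controls. The log2 fold change was -0.62 ± 0.17 (SE; edgeR adjusted p = 0.0341), and the call was kept in 2 of the 6 fits that left out a library, with adjusted p-values of 0.0437 to 0.127.

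Rpl36a, a large-subunit protein near the site where spent tRNA leaves, had 7.43, 6.54 and 6.46 CPM in shControl against 4.40, 3.36 and 4.75 in shUHRF1 (chromosome X, 134585654 to 134588062, plus strand). The groups did not overlap, and the log2 fold change was -0.70 ± 0.21 (SE; edgeR adjusted p = 0.0436). Its autosomal retrocopy Rpl36al encodes a nearly identical protein and had more reads. Rpl36al had 257, 222 and 315 reads in shControl and 408, 232 and 329 in shUHRF1, and its log2 fold change was 0.11 ± 0.15 (SE; edgeR adjusted p = 0.642). Of the mRNA of Rpl36a, 85.48% of the 50-base words are shared with other genes, so its reads are uncertain. Leaving out any 1 of the 6 libraries ended the call (adjusted p from 0.0598 to 0.130).

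Rplp1, of the P stalk that recruits elongation factors to the large subunit, had 192, 232 and 213 CPM in shControl against 155, 157 and 170 in shUHRF1 (chromosome 9, 61913284 to 61914542, minus strand). It was the member with the highest level per length, so a fall here involved many reads: 3301, 3590 and 4448 in shControl and 3457, 2674 and 3509 in shUHRF1. The log2 fold change was -0.40 ± 0.11 (SE; edgeR adjusted p = 0.0368). All shUHRF1 libraries lay below all controls, but leaving out any 1 of the 6 ended the call (adjusted p from 0.0516 to 0.105).

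Rps20, a protein in the head of the small subunit, was the member that rose (chromosome 4, 3831334 to 3835665, minus strand). It had 68.0, 69.9 and 74.9 CPM in shControl against 96.5, 82.6 and 104 in shUHRF1, without overlap. The log2 fold change was 0.41 ± 0.12 (SE; edgeR adjusted p = 0.0410). Its mRNA shares only 7.44% of its 50-base words with other genes. The call was kept in 1 of the 6 fits that left out a library (adjusted p from 0.0250 to 0.158), and a fit corrected for GC content and gene length gave an adjusted p of 0.214 and a log2 fold change of 0.28.

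**Figure D2:**
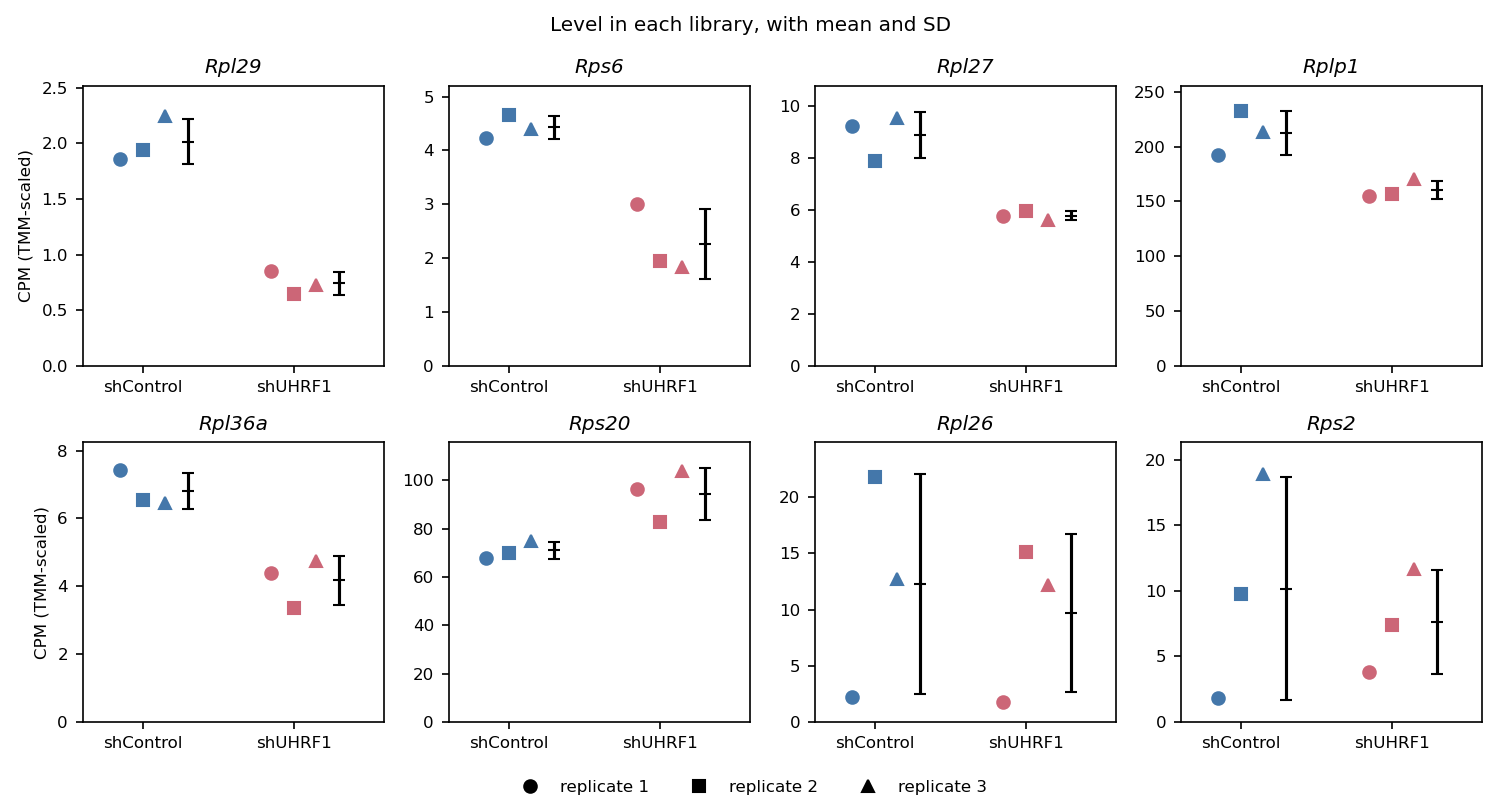
Level in CPM in each library for the 6 genes that passed the test and for Rpl26 and Rps2; the marker shape gives the replicate number, and the bar beside each group is the mean with its SD (n = 3). Rpl29, Rps6, Rpl27, Rplp1 and Rpl36a are lower in all 3 shUHRF1 libraries, Rps20 is higher, and Rpl26 and Rps2 differ widely by replicate number.

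The groups did not overlap in 11 of the 79 tested genes, against 44.0% of all tested genes. In 10 of them shUHRF1 was lower (22.3% of all genes) and in 1 it was higher (21.7% of all genes). Beside the 6 called genes these were Rpl31, Rpl36, Rpl34, Rpl41 and Rpl7l1, named because they complete the count. Rpl31 had 6.10, 5.89 and 6.07 CPM in shControl against 5.12, 3.95 and 4.07 in shUHRF1, with a log2 fold change of -0.46 ± 0.20 (SE; edgeR adjusted p = 0.131). Rpl36 had 3.60, 4.08 and 4.16 CPM and 3.19, 2.77 and 2.95 CPM, with a log2 fold change of -0.41 ± 0.21 (SE; edgeR adjusted p = 0.205). Neither passed the test in this fit. With the replicate block and a correction for GC content and length together, Rpl31 was called lower (log2 fold change -0.60, edgeR adjusted p = 0.0483).

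The other genes of the P stalk did not pass the test. Rplp0, its base, had 125, 143 and 146 CPM in shControl against 178, 131 and 173 in shUHRF1, with a log2 fold change of 0.22 ± 0.14 (SE; edgeR adjusted p = 0.304). Rplp2, the partner of Rplp1, had 34.0, 46.5 and 42.7 CPM and 39.4, 31.5 and 40.9 CPM, with a log2 fold change of -0.14 ± 0.16 (SE; edgeR adjusted p = 0.569). Both overlapped between groups. Whether the 3 fold changes differ from each other was not tested.

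Rpl5 and Rpl11, which with 5S ribosomal RNA form the particle that binds Mdm2 when ribosome assembly fails, did not pass the test. Rpl5 had 3.14, 3.69 and 3.30 CPM in shControl against 3.55, 3.83 and 3.34 in shUHRF1, with a log2 fold change of 0.08 (95% interval -0.41 to 0.57). Rpl11 had 3.37, 3.50 and 4.50 CPM and 4.04, 3.24 and 3.68 CPM, with a log2 fold change of -0.05 (95% interval -0.58 to 0.48). In a list of 10 genes of the p53 response that this particle controls, 1 fell, Zmat3, an RNA-binding p53 target, with a log2 fold change of -1.29 ± 0.13 (SE; edgeR adjusted p = 0.00101). In that fit 12.4% of all tested genes were lower and 11.6% higher. With the replicate block 2 of the 10 were called lower and 0 higher, against 15.7% of all genes lower and 15.3% higher. The second was Bax, which promotes cell death (edgeR adjusted p = 0.0156 with the block and 0.0910 without it). The p53 target Cdkn1a did not pass the test (log2 fold change -0.68 ± 0.28, SE, edgeR adjusted p = 0.113). Eda2r, also in this list, went the other way and did not pass either (3.4 ± 1.21, SE, edgeR adjusted p = 0.0775). Its level was 0.232, 1.55 and 0.813 CPM in shControl against 23.9, 0.883 and 2.28 in shUHRF1, so the groups overlapped. Rpsa, a small-subunit protein also known as the laminin receptor, had 2.96, 2.14 and 3.64 CPM and 4.36, 2.59 and 3.44 CPM, with a log2 fold change of 0.25 (95% interval -0.44 to 0.94).

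Levels between members differed far more than levels between groups. On the scale of CPM per kilobase of exon, the mean over the 6 libraries ran from 0.619 to 374 among the tested genes, a 604-fold range, with a median of 7.11. Among the highest were Rplp1 at 374, Rpl8 at 186, Rps15 at 157, Rpl4 at 142 and Rplp0 at 89.9. Rpl8 lies near the centre where peptide bonds form, Rpl4 reaches into the exit tunnel, and Rps15 lies in the head of the small subunit. The lowest tested genes were Rpl23a at 0.619, Rps27a at 0.691, and Rps29 and Rps12 at 0.769 each. Rpl23a lies at the mouth of the exit tunnel and Rps27a is made fused to ubiquitin. Their position at the bottom rests on few reads: Rpl23a had 9, 1 and 15 reads in shControl and 20, 7 and 11 in shUHRF1.

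Rps15, Rpl4 and Rpl8 did not pass the test. Rps15 had 84.4, 80.8 and 101 CPM in shControl against 137, 71.2 and 118 in shUHRF1, with a log2 fold change of 0.29 ± 0.23 (SE; edgeR adjusted p = 0.390). Without shUHRF1 replicate 2 it was 0.50, with an edgeR adjusted p of 0.0386. Rpl4 had 246, 280 and 272 CPM and 367, 231 and 318 CPM, with a log2 fold change of 0.20 ± 0.17 (SE; edgeR adjusted p = 0.441). Rpl8 had 238, 252 and 301 CPM and 261, 186 and 283 CPM. In each of these 3 genes shUHRF1 replicate 2 was the lowest of the 6 libraries and the groups overlapped. Rps28, at the mRNA exit of the small subunit, had the next largest positive value after Rps20 in that subunit, with 1.80, 2.01 and 1.72 CPM and 3.23, 1.71 and 1.99 CPM (log2 fold change 0.33, 95% interval -0.40 to 1.06).

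The measured level went with how much of a gene's sequence is found elsewhere. The authors' counts do not include reads that align to more than 1 place, and such reads made up 30.5 to 37.28% of all entries in the count tables. In the annotated transcripts, 80 of the 83 genes share 50-base words with at least 1 pseudogene, with a median of 8 and at most 119 pseudogenes, 1102 in all. The share of a member's 50-base words found in another gene ranged from 0 to 98.65%, with a median of 43.9%, and was at least 50% in 33 genes. Among tested genes, those with a shared part under 20% had a median of 20.2 CPM per kilobase (11 genes), and the next classes had 10.4 (20 to 40%, 22 genes), 3.77 (40 to 60%, 21 genes) and 2.57 (60% and more, 25 genes). Across the 79 genes, Spearman's rho between shared part and level was -0.49 with words of 50 bases and -0.57 with words of 75 bases, given as a description over genes measured in the same 6 libraries. Rplp1 departed from this order, with 60.00% shared and the top level, and Rps29 was low with 35.78% shared. What the members' levels would be with all reads counted was not tested, so order among members is order of uniquely placed reads.

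The fold change went with the shared part much less, at a rho of -0.12. The class under 20% held the gene that rose, the class of 40 to 60% held 1 gene that fell, and the class of 60% and more held 4, among them the thinly covered Rpl29, which shares words with 81 pseudogenes. Reads of those pseudogenes summed to 3.14, 4.53 and 3.97 CPM in shControl against 4.67, 3.18 and 3.97 in shUHRF1, overlapping between groups, while the gene's own reads did not overlap. With the reads of its named pseudogene copies added to the gene, the log2 fold change of Rpl29 shrank from -1.43 to -0.96 (edgeR adjusted p = 0.0404). The median log2 fold changes of the 4 classes, from least to most shared, were 0.09, -0.07, 0.01 and -0.05. In addition, exons of 19 members overlap a gene on the opposite strand and exons of 27 overlap a gene on the same strand; without a known strand setting the former cannot be told apart, and none of the 6 called genes has an opposite-strand overlap.

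**Figure D3:**
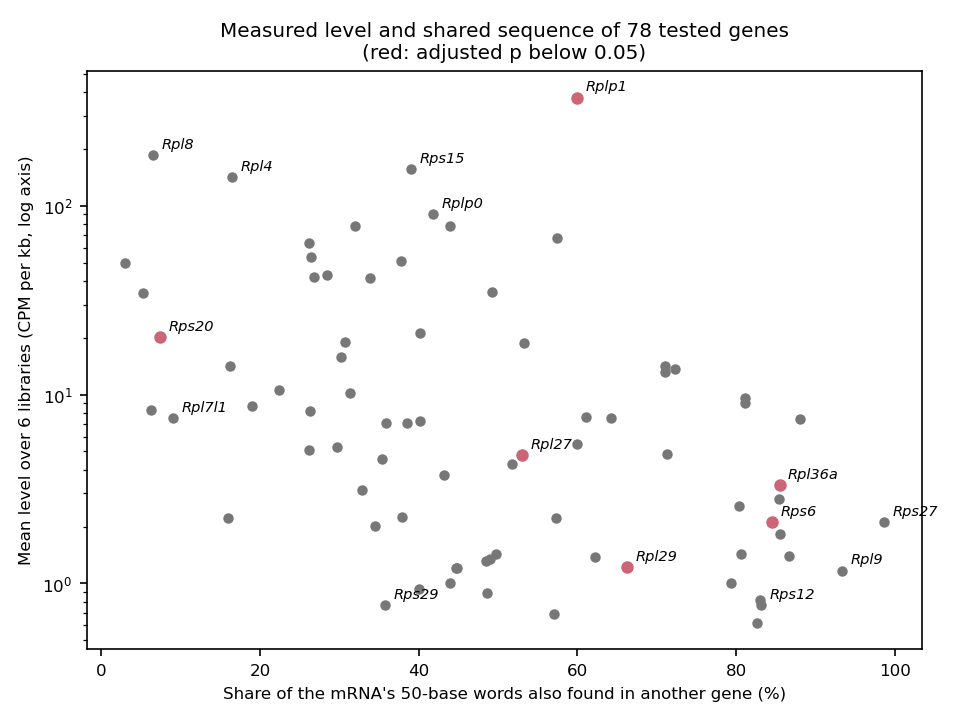
Mean level over 6 libraries (CPM per kilobase, log axis) against the share of the mRNA's 50-base words that also occur in another gene, for 78 of the 79 tested genes. Levels are spread over the whole range at a low share and mostly below 10 at a high one, with Rplp1 as the exception at 374; of the 6 red genes that passed the test, 5 lie at a share above 50%.

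Summed over the family, the level did not separate the groups. The 83 genes took 0.271, 0.319 and 0.302% of the gene reads in shControl and 0.368, 0.261 and 0.354% in shUHRF1. Scaled by library, they summed to 2886, 3219 and 3233 CPM in shControl (3113 ± 197, SD, n = 3) and 3464, 2535 and 3397 CPM in shUHRF1 (3132 ± 518). The highest and the lowest library were both shUHRF1 libraries. In shUHRF1 replicate 2 the median gene lay 0.25 below its own mean on the log2 scale, and that library was the lowest of 6 for 45 of the 79 genes. It also had the highest share of entries outside annotated genes, 17.18%, and the lowest share of entries aligned to several places, 30.5%; the part of these in its low values was not tested.

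The members moved together within a library, so the sign of the family's shift depended on the pair. Between libraries of the same number, shUHRF1 was above shControl for 59 of the 79 genes in pair 1, for 11 in pair 2 and for 38 in pair 3. The median log2 ratio was 0.23, -0.33 and -0.02, while the median of all genes was 0.03, 0.01 and 0.01. Without shUHRF1 replicate 2 the median fold change of the family was 0.02, without shUHRF1 replicate 1 it was -0.10, and with pairs 1 and 3 alone it was 0.09.

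**Figure D4:**
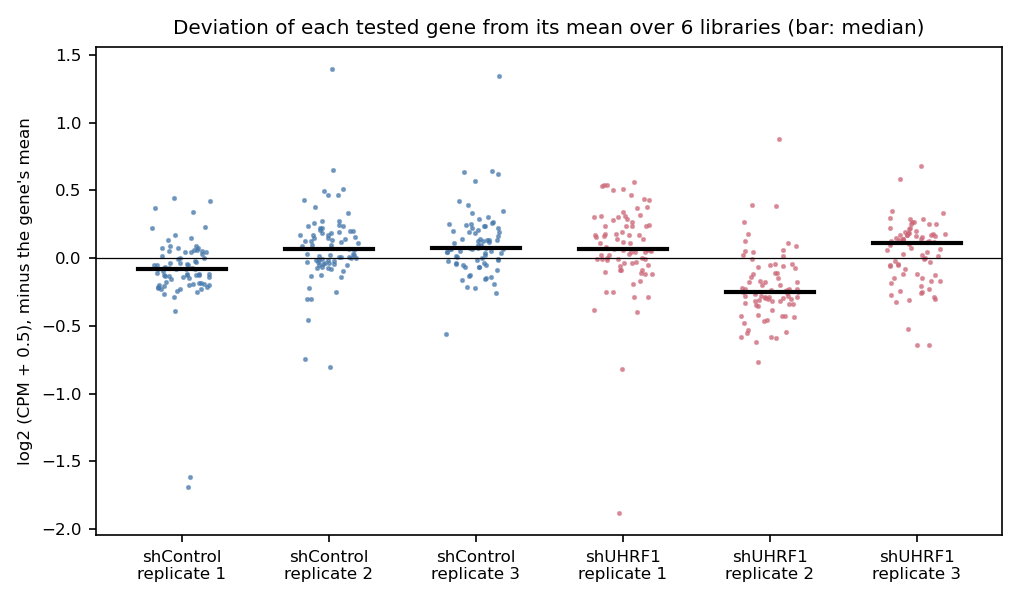
Deviation of each tested gene from its own mean over the 6 libraries on the log2(CPM + 0.5) scale, 1 point per gene and library, with a bar at the median. The cloud of shUHRF1 replicate 2 lies lower than the others, with a median of -0.25, and the single points far from the rest are Rpl26 and Rps2.

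Rpl26, at the tunnel exit and also known to bind Trp53 mRNA, differed widely by library number. It had 2.26, 21.8 and 12.7 CPM in shControl against 1.80, 15.1 and 12.2 in shUHRF1, so that both replicate 1 libraries were low and both replicate 2 libraries high. Its difference between groups did not pass the test (log2 fold change -0.34, 95% interval -2.28 to 1.59). With the replicate block the log2 fold change was -0.31 with an interval of -0.71 to 0.09 (edgeR adjusted p = 0.209), and shUHRF1 was the lower library in each of the 3 pairs. In a test of the replicate numbers, added after its values were seen, Rpl26 was 1 of 6 genes with an adjusted p below 0.05 (edgeR, adjusted p = 0.0301), which is 0.0385% of all genes. The others were Gm6166, Ly86, Ehmt1, H2-K1 and Gm42993. Pseudogenes sharing words with Rpl26 did not follow it, at 8.07, 5.83 and 6.31 CPM in shControl against 9.48, 4.36 and 7.70 in shUHRF1.

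Rps2, at the mRNA entry of the small subunit, had a like pattern, with 1.86, 9.78 and 18.9 CPM in shControl against 3.82, 7.36 and 11.7 in shUHRF1. Here both replicate 3 libraries were the highest. The replicate terms gave an unadjusted p of 0.00198 and an adjusted p of 0.112 (edgeR). An unadjusted p below 0.05 for the replicate number was found in 4 members, Rpl26, Rps2, Rps26 and Rpl35a, and in 15.2% of all genes.

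Several members have a paralog with a restricted or distinct use, and none of these pairs exchanged places after knockdown. Rpl3l, known from muscle, had 15 reads in all 6 libraries together, and Rpl10l and Rpl39l, known from testis, had 3 and 1. Their common partners had more reads: Rpl3 had 658 in all, Rpl10 had 647 and Rpl39 had 2319. Of the 50-base words of Rpl3 and Rpl10, 85.56% and 85.36% are shared with other genes. The fourth untested gene, Rpl24, had 9, 10 and 17 reads in shControl and 7, 5 and 8 in shUHRF1, and exons covering 47.0% of its length overlap another annotated gene, Gm28037.

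Rpl22 protein is known to restrain its paralog Rpl22l1. Rpl22 had 31.9 CPM per kilobase in shControl and 37.3 in shUHRF1, and Rpl22l1 had 2.43 and 1.99. Their log2 fold changes were 0.23 ± 0.15 and -0.28 ± 0.23 (SE; edgeR adjusted p = 0.313 and 0.411). Rps27 and its p53-responsive paralog Rps27l had 2.06 and 11.2 CPM per kilobase in shControl and 2.19 and 9.98 in shUHRF1, so the paralog had the higher measured level, while 98.65% of the words of Rps27 are shared with other genes. Rpl7 had 18.4 and 19.0 CPM per kilobase and Rpl7l1 had 8.08 and 6.97. The log2 fold change of Rpl7 was 0.05 ± 0.16 and that of Rpl7l1 was -0.21 ± 0.12 (SE; edgeR adjusted p = 0.847 and 0.224). Rps4x, on the X chromosome, had 13.1 and 14.3 CPM per kilobase, and its log2 fold change was 0.12 ± 0.15 (SE; edgeR adjusted p = 0.604). Rps4l, annotated in mouse as a transcribed processed pseudogene, had 161, 129 and 394 reads in shControl and 190, 94 and 160 in shUHRF1.

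Genes that work with the cytosolic ribosome were read from lists beside the family. For comparison, 24.0% of all tested genes were called, 11.6% higher and 12.4% lower. Among 8 genes outside the name rule that encode ribosomal or ribosome-bound proteins, 0 rose and 1 fell (12.5%). This was Fau, which encodes a small-subunit protein fused to a ubiquitin-like domain: it had 17.0, 13.4 and 17.0 CPM in shControl against 12.0, 9.89 and 9.98 in shUHRF1 (log2 fold change -0.57 ± 0.17, SE; edgeR adjusted p = 0.0417). Rack1, the signalling scaffold on the small subunit, had 254, 303 and 291 CPM and 397, 273 and 378 CPM (edgeR adjusted p = 0.206).

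Of 37 translation factors, 8 fell and 2 rose (27.0%, close to the 24.0% of all tested genes), with a median log2 fold change of -0.03. Eif4g1, the scaffold of the cap-binding complex, had 1151, 1042 and 1109 CPM in shControl against 328, 524 and 344 in shUHRF1, which on the log2 scale is a change of -1.46 ± 0.19 (SE; edgeR adjusted p = 0.00213). Eif1, which helps choose the start codon, fell by 1.05 on the log2 scale, and Eif3i, of the initiation factor that sits on the small subunit, fell by 0.68. The 2 that rose were Eif4a2, an RNA helicase, at 0.75 and its activator Eif4b at 0.81, on the log2 scale. Their calls had edgeR adjusted p-values of 0.00730 and 0.0134.

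Of 43 ribosome biogenesis genes, 2 rose and 1 fell (6.98%, against 24.0% of all genes), with a median log2 fold change of 0.08. With the replicate block 4 were higher and 2 lower, against 31.0% of all genes. The 3 called without the block belong to RNA polymerase I transcription. The subunit genes Polr1d and Polr1e changed by -0.69 ± 0.14 and 0.77 ± 0.17 and the initiation factor Rrn3 by 0.59 ± 0.17 on the log2 scale (SE; edgeR adjusted p = 0.0101, 0.0168 and 0.0374). In the mTOR and TOP-regulator list, 4 of 31 tested genes rose and 5 fell (29.0%, against 24.0% of all tested genes; median -0.06). Mtor, the kinase itself, rose by 0.34 ± 0.10, and Deptor, which inhibits it, fell by 1.89 ± 0.28 (SE; edgeR adjusted p = 0.0457 and 0.00378). Sesn3, a sensor that restrains mTOR, rose by 1.63 ± 0.21 and the upstream kinase Akt1 fell by 0.74 ± 0.12 (SE; edgeR adjusted p = 0.00203 and 0.00466). The other 5 were Rragd and Mlst8, which rose, and Akt1s1, Rragb and Lamtor3, which fell.

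The proteins of the mitochondrial ribosome, a separate machine encoded by other nuclear genes, were mostly lower among those that passed the test. Of 77 tested genes 13 fell and 1, Mrpl34, rose (18.2%, against 24.0% of all tested genes), with a median log2 fold change of -0.22. Mrpl28 fell from 52.4 ± 3.23 to 27.6 ± 2.55 CPM and Mrps25 from 32.6 ± 1.87 to 17.3 ± 0.886 CPM (SD, n = 3; edgeR adjusted p = 0.00217 and 0.00226). Summed over the list, the range was 2137 to 2237 CPM in shControl and 1765 to 2040 CPM in shUHRF1, without overlap, whereas the sums of the cytosolic family overlapped. Whether these families differ from each other was not tested.

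**Figure D5:**
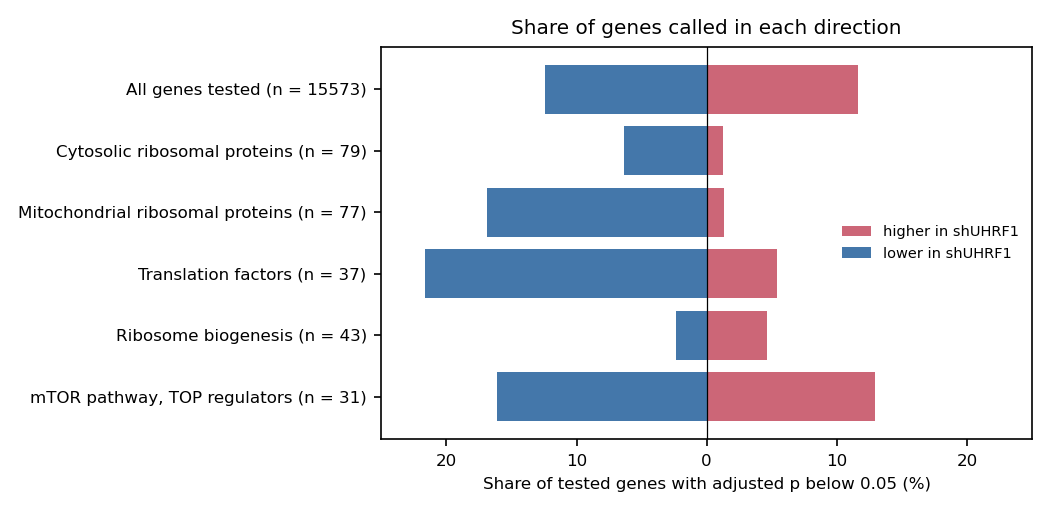
Percentage of tested genes with an adjusted p below 0.05, lower in shUHRF1 to the left and higher to the right, for all genes, the cytosolic ribosomal proteins and 4 lists of related genes. The cytosolic ribosomal proteins (7.59% in all) and ribosome biogenesis genes (6.98%) have shorter bars than all genes (24.0%), and the bar of the mitochondrial ribosomal proteins lies almost wholly on the lower side.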

How the data were processed

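RNA-seq counts of 6 libraries were used, 3 per group. The authors deposited raw read counts in 1 table for each library; a table lists 47643 gene identifiers, then 5 summary lines. The submitters' processing notes name FastQC, STAR, HTSeq, DESeq2 and the mm10 build; for the versions, annotation release, read length and strand, the entry is "not given in the sources used here". The summary lines stayed out of library sizes: 8.43 to 17.18% of entries lay in no feature, 2.12 to 2.27% were ambiguous and 30.5 to 37.28% aligned to several places. Symbols, biotypes, exon lengths and transcripts came from GENCODE M21 (GRCm38), which matched 47224 identifiers. Start-site windows came from the RefSeq table.

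All genes passing filterByExpr were fitted with edgeR 4.0.16 (R 4.3.3, TMM factors, quasi-likelihood F test, Benjamini-Hochberg adjustment), after checks on simulated data. In simulated counts with 50 genes changed at each fold, 4.2% of 1.5-fold, 49% of 2-fold and 81.6% of 4-fold changes were called. Of the 122 calls there, 12 were false. The simulation changed far fewer genes than were called in the data. CPM is TMM-scaled, and levels per kilobase use the union of annotated exons. Shared sequence is the share of 50-base words of the principal mRNA found in transcripts of another gene. DESeq2 1.42.0, limma 3.58.1 and other alternatives are given in the closing section. Permuting 3 against 3 libraries cannot give a p below 0.1, so no such test was used.

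Named genes are the called members, those among the 6 highest and 4 lowest per length, the 4 largest changes in each direction, paralog pairs, 7 members with known roles and, per list, the 4 genes with the smallest p; other called list genes, Rpl26, Rps2 and members completing a count were named after their values were seen. Some named genes are not reported here. Members and lists were chosen with earlier results of these data known. The labels' replicate numbers were checked as pairs. Over all genes, libraries of the same number deviated together from their groups' means (r of 0.325, 0.401 and 0.400). The numbers were therefore treated as pairing in an added fit with the replicate number as a block. The main fit and the fits that left out a library had no replicate term. Values given without mention of the block come from fits that ignore the pairing.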

Additional observations from a re-analysis of the deposited data

How the results depend on the processing

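The 6 ribosomal protein calls were all kept by DESeq2, by limma-voom and in the fit with the replicate block; the block raised the calls over all genes from 3735 to 4820. Over all genes, 4290 were called by DESeq2, 1434 at an adjusted p below 0.01, and 1768 to 3888 with 1 library left out (1768 without shControl replicate 3, 2018 without shControl replicate 1, 2171 without shUHRF1 replicate 3). Ribosomal protein genes called lower numbered 1 with upper-quartile factors, 3 with no low-count filter, 3 with at least 2 CPM in 3 libraries, 3 with named pseudogene copies summed, 1 with pairs 1 and 3 only and 0 at an adjusted p below 0.01. Those called higher numbered 0 with no low-count filter, with the GC and length offset (alone or with the replicate block), with pairs 1 and 3 only and at an adjusted p below 0.01. Leaving out 1 library gave 0 to 2 called lower and 0 to 2 called higher; without shControl replicate 3 none was called. Upper-quartile factors moved the median of all genes to 0.14 and that of the family to 0.12, so that the family stayed beside all genes. Calls were gained as well: Rpl31 was lower with the replicate block and the GC and length offset together (-0.60, adjusted p = 0.0483), which gave 6 called lower, and Rps15 was higher without shUHRF1 replicate 2 (0.50, adjusted p = 0.0386). The pairs 1 and 3 and the test of replicate numbers were added after seeing the data.

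Fold changes of genes that passed no test crossed 0 as follows on the log2 scale. With upper-quartile factors Rpl8 was 0.01, Rpl3 0.10, Rpl39 0.01 and Rpl11 0.08. With the GC and length offset Rpl7 was -0.06 and Rpl5 -0.03, and with the replicate block added -0.08 and -0.03. At 2 CPM or more Rpl3 was 0.02. With pairs 1 and 3 only Rpl8 was 0.01, Rpl39 0.07, Rps27l 0.10 and Rplp2 0.06. With 1 library left out Rpl8 ranged from -0.25 to 0.02, Rpl23a from -0.02 to 1.02, Rps29 from -0.73 to 0.24, Rpl3 from -0.11 to 0.08, Rpl7 from -0.03 to 0.17, Rps27 from -0.29 to 0.32, Rps27l from -0.41 to 0.01 and Rpl11 from -0.15 to 0.08. The causes were not tested. Depth limits the family: 25 of the 79 tested members averaged under 100 reads and 37 under 10 CPM.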
